A study of Mus musculus with 18 samples.

Results

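The 10 genes described here encode plasma membrane carriers of amino acids, namely Slc3a2, Slc7a5, Slc43a2, Slc7a11, Slc1a4, Slc1a5, Slc38a1, Slc38a2, Slc7a1 and Slc7a2. They were chosen by name, with earlier results of these data known. Of the mouse genes, 18193 had at least 1 probe set with a single gene symbol. Together the 10 carrier genes had 24 such probe sets. For each gene the probe set with the highest mean over all 18 arrays was used.

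The study asked how blocking MEK, a kinase of the RAS and ERK growth pathway, combines with an antibody that activates the immune receptor CD40. MC38 tumours, a mouse colon carcinoma line injected under the skin, were grown in C57BL/6-Ly5.1 mice of 6 to 12 weeks at injection, and RNA from pieces of frozen tumours taken on day 22 was hybridised to Affymetrix Mouse430_2 arrays. The control group (n = 5) received the vehicle MCT and a control IgG, the anti-CD40 group (n = 4) vehicle and the agonist antibody, the MEKi group (n = 5) the MEK inhibitor GDC-0623 at 30 mg/kg per day and control IgG, and the MEKi/CD40 group (n = 4) inhibitor and agonist antibody. Antibodies were given on treatment days 3, 5 and 7 and again the day before sampling. The model has 1 tumour line and 1 time point, and each array came from a separate mouse.

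Cells take up amino acids through families of carriers with overlapping substrates. SLC7A5 (LAT1) pairs with the heavy chain SLC3A2 (CD98) and exchanges intracellular glutamine for leucine and other large neutral amino acids, which feed protein synthesis and mTORC1 signalling. SLC1A5 (ASCT2), SLC38A1 and SLC38A2 (SNAT1 and SNAT2) bring in glutamine and small neutral amino acids, SLC7A1 and SLC7A2 (CAT1 and CAT2) bring in arginine and lysine, and SLC7A11 (xCT) brings in cystine for glutathione. Many of these genes are known targets of the transcription factor ATF4, which is translated when amino acids run short, and several are also known targets of MYC.

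ATF4 is known to bind TGATGNAA, so the RefSeq start site windows (GRCm38.p6, 300 bases, from 250 before the start) were searched for these letters on either strand. Windows were found for 6 of the 10 genes (8 windows). Slc7a5, Slc38a1, Slc7a2 and Slc1a5 had no window and were not searched for any of the letters below. Slc7a11 held the letters on both strands and Slc1a4 held them once, against 3.97% of all 32851 windows with at least 1 match. Both stretches are shown because they are where the ATF4 letters sit in this set, with the match in capitals and the reverse complement of the motif written as it reads on the gene's strand.

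Slc7a11, chr3:50443652-50443680, minus strand: cTGATGCAAacctggagaatTTGCATCAt
Slc1a4, chr11:20332699-20332728, minus strand: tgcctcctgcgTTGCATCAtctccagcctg

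Counting the first transcribed base as 0, the matches in Slc7a11 began at -66 and -47, and the match in Slc1a4 began at -4 and ran across the start. The E-box letters CACGTG, which MYC can bind, were in none of the 8 windows and in 7.15% of all windows. The letters TGACNNNGC of the antioxidant response element, which NRF2 can bind, were in windows of Slc7a1 (at -11) and Slc38a2 (at -27) and in 12.4% of all windows. A match describes the letters and was not tied to binding here. Slc1a4 gave 1 of the calls below, while Slc7a11 passed in no comparison. The carriers called against control below, Slc7a5, Slc38a1 and Slc7a2, were among those not searched.

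Mean log2 signal over the 7 fibroblast markers was 11.18 ± 0.26 (SD) in control, 11.56 ± 0.35 with anti-CD40, 12.92 ± 0.33 with MEKi and 13.73 ± 0.10 with MEKi/CD40, and 7 of 7 markers rose with MEKi/CD40 against control. The 5 proliferation markers averaged 11.85 ± 0.16, 11.76 ± 0.17, 11.04 ± 0.25 and 10.37 ± 0.40 in the same order. Against control, 5 of 5 fell with MEKi/CD40 and 5 of 5 with MEKi alone. Of 6 epithelial markers, Epcam, Krt8, Krt18, Krt19 and Cldn4 were at the background level in every group and only Cdh1 was measured (5.26 to 6.45), so the carcinoma origin of the line was not visible in them. The adipocyte score was highest in tumours MEKi/CD40 2 (10.81), MEKi/CD40 4 (7.02) and anti-CD40 3 (6.11), and tumour MEKi/CD40 4 also had a skeletal muscle score of 8.39. Numbers in the sample titles fall into a low and a high series; control and MEKi tumours come from both (2 low, 3 high each) and the other groups from the low series alone. The log2 ratio of 3′ to 5′ signal, a sign of RNA quality, averaged -0.25 for Gapdh and 0.33 for actin in control and -0.20 and 0.41 with MEKi/CD40, and its part in the results was not tested. In tumour pieces of mixed cells, fewer cells of a type and less RNA per cell cannot be told apart.

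**Figure D1:**
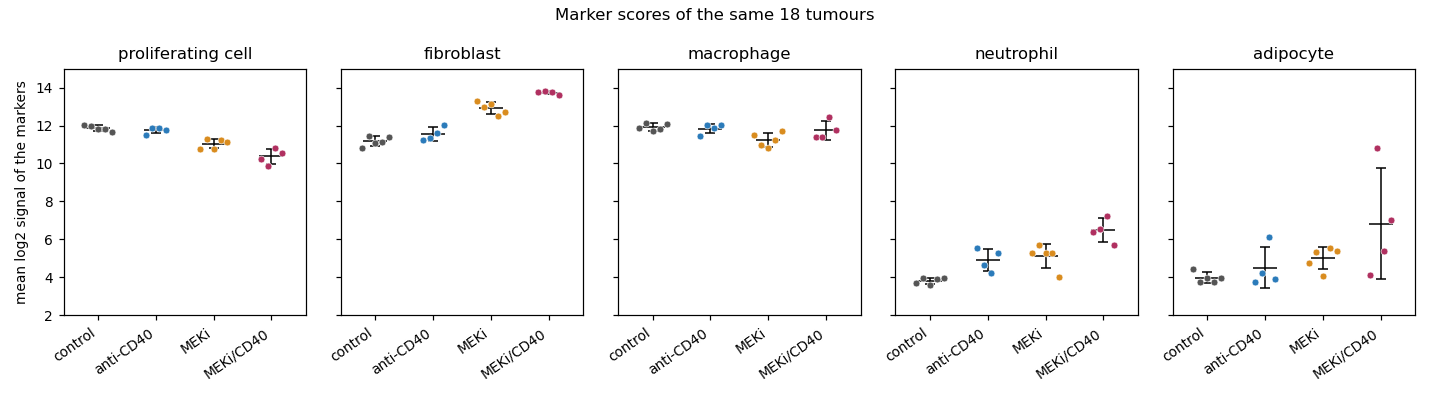
Marker scores, the mean log2 signal of the measured markers of each cell type (vertical axis), for the 18 tumours by group (horizontal axis), 1 point per tumour with the group mean and SD as bars. Fibroblast scores reach 13.73 on average with MEKi/CD40, proliferation scores fall to 10.37, and 1 MEKi/CD40 tumour has an adipocyte score of 10.81.

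Against control, 3 of the 10 carriers passed the test with MEKi/CD40, where 14.9% of all 45037 probe sets did (limma, Benjamini-Hochberg adjusted p under 0.05, called "passed" below). Slc7a5 and Slc38a1 fell (9.37% of all probe sets fell) and Slc7a2 rose (5.5% rose). Shares over all probe sets, here and below, include values at the floor (background), 53.7 to 55.9% of each array. By the rule used for the floor the 10 carriers had no value there, although Slc7a11 had a low signal. With probe sets at the floor filtered out, more probe sets passed (8858 against 6698) and still 3 of the 10 carriers. The share among measured probe sets was therefore higher than 14.9%. With MEKi alone only Slc7a2 passed, 1 of 10 against a background of 7.83%. With anti-CD40 alone none passed in limma, as for all probe sets (0%), and none of the 10 had an unadjusted p under 0.05, which 5.38% of all probe sets had. Between MEKi/CD40 and MEKi, Slc7a5 was the carrier that passed (1 of 10, background 2.5%). Against anti-CD40, 3 carriers passed with MEKi/CD40 (background 11.6%) and 2 with MEKi (background 5.09%). Comparisons against the same control tumours share those tumours. The interaction of MEKi and anti-CD40 passed for 0 of 10 carriers in limma, with 0 at an unadjusted p under 0.05, beside 2.64% and 14.7% of all probe sets. The median difference of the 10 carriers was 0.21 with MEKi/CD40 and -0.08 with MEKi on the log2 scale, beside a median of 0 over all probe sets in each. Over the 19125 probe sets never at the floor the medians were -0.07 and -0.02.

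**Figure D2:**
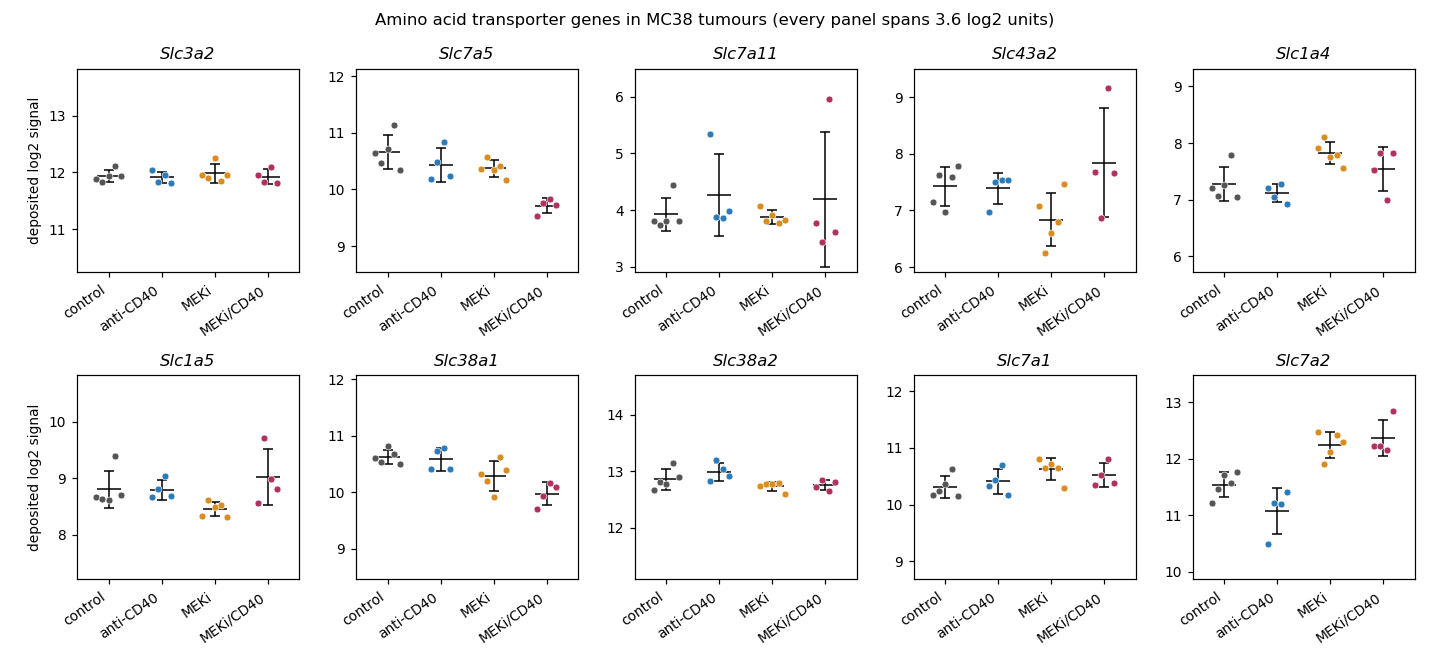
Deposited log2 signal (vertical axes, each spanning 3.6 units) of the 10 carrier genes in every tumour by group (horizontal axis), with group mean and SD as bars. Slc7a5 is lowest in the 4 MEKi/CD40 tumours (9.53 to 9.84), Slc7a2 is highest with MEKi and MEKi/CD40, and Slc7a11 lies near 3.8 except in single tumours.

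The heavy chain gene Slc3a2 was high and flat. Its log2 signal ran from 11.81 to 12.26 over all 18 tumours, the narrowest span of the 10. Group means were 11.94 ± 0.11 in control, 11.91 ± 0.10 with anti-CD40, 11.98 ± 0.16 with MEKi and 11.92 ± 0.13 with MEKi/CD40. No comparison passed, and the difference between MEKi/CD40 and control was -0.02 with a 95% interval from -0.20 to 0.16.

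Its partner Slc7a5 (chr8:121881146-121907686, GRCm38.p6), the leucine carrier of the pair, was lower with the combination than in any other group. Control tumours read 10.64, 10.47, 10.72, 11.14 and 10.34, and anti-CD40 tumours 10.19, 10.49, 10.84 and 10.23. MEKi tumours read 10.36, 10.58, 10.35, 10.42 and 10.16, and MEKi/CD40 tumours 9.53, 9.76, 9.84 and 9.72. All 4 MEKi/CD40 values lay below all 14 others, while the other groups overlapped. The carriers with no such overlap between MEKi/CD40 and control numbered 3 of 10, beside 16.8% of all probe sets. Against MEKi it was 1 of 10, beside 8.93%, and against anti-CD40 3 of 10, beside 18.4%.

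Slc7a5 fell by 0.95 ± 0.16 (SE) on the log2 scale with MEKi/CD40 against control, to 51.8% of the control signal (adjusted p = 0.00855). Against MEKi alone it fell by 0.66 ± 0.09 (adjusted p = 0.0268), and against anti-CD40 by 0.72 ± 0.16 (adjusted p = 0.0349). The differences of the single agents from control, -0.29 ± 0.15 for MEKi and -0.22 ± 0.20 for anti-CD40, did not pass (adjusted p = 0.345 and 0.927 in limma). The interaction, which asks whether the combination differs from the sum of both single differences, was -0.44 ± 0.22 and did not pass either (adjusted p = 0.398). In the order control, anti-CD40, MEKi, MEKi/CD40, only the last step of Slc7a5 passed.

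The Slc7a5 difference from control passed without any 1 tumour (-1.03 to -0.83, highest adjusted p = 0.0288), but not among tumours of the low number series alone (-0.84, adjusted p = 0.0521) or without the 3 tumours of highest adipocyte score (-0.98, adjusted p = 0.0746). It also missed the threshold when the number series was blocked (-0.84, adjusted p = 0.0658) or the adipocyte score entered the fit (-0.998, adjusted p = 0.0519). The difference from MEKi was lost without MEKi 2, 3, 4 or 5 or MEKi/CD40 1 or 2 (adjusted p = 0.0532 to 0.0737), and that from anti-CD40 without anti-CD40 2 or 4 or MEKi/CD40 1, 2 or 4. The proliferation score was also lowest with MEKi/CD40. With MEKi alone 5 of 5 proliferation markers fell against control, while Slc7a5 did not pass. The part of proliferation in the Slc7a5 difference was not tested.

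Slc43a2 (LAT4), which lets large neutral amino acids leave or enter cells by facilitated diffusion, passed in no comparison. Its means were 7.43 ± 0.35 in control, 7.39 ± 0.27 with anti-CD40, 6.84 ± 0.46 with MEKi and 7.84 ± 0.96 with MEKi/CD40. The MEKi/CD40 tumours read 7.67, 6.87, 9.17 and 7.66, tumour 3 being the highest of all 18. Against MEKi the MEKi/CD40 difference was 1.01 ± 0.47 (adjusted p = 0.354), and 0.56 without tumour 3. That tumour also had the highest macrophage score (12.47) and neutrophil score (7.25) of its group, whose part in the Slc43a2 value was not tested. A second probe set of Slc43a2 gave 5.86, 5.76, 5.32 and 5.75 for the groups in the same order, also lowest with MEKi, and passed in no comparison.

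The cystine carrier gene Slc7a11 had a low signal. The value 3.81 recurred on several arrays, and 14 of 18 tumours lay between 3.43 and 4.00. The higher readings were 4.45 in control 4, 4.07 in MEKi 1, 5.34 in anti-CD40 1 and 5.97 in MEKi/CD40 3. A second probe set also stood out in MEKi/CD40 3 alone (5.94, against 3.58 to 3.91 in all other tumours). No comparison of Slc7a11 passed in limma (adjusted p from 0.670 to 1), and no fold is given at so low a signal.

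Slc1a4 (ASCT1; chr11:20302180-20332713), an exchanger of alanine, serine and cysteine, was highest with MEKi. Control tumours read 7.21, 7.07, 7.25, 7.79 and 7.04, and anti-CD40 tumours 7.21, 7.04, 7.27 and 6.93. MEKi tumours read 7.92, 8.10, 7.76, 7.79 and 7.56, and MEKi/CD40 tumours 7.53, 7.82, 7.00 and 7.82. All 5 MEKi values lay above all anti-CD40 values (groups without overlap in this comparison: 4 of 10 carriers, 10.4% of all probe sets), while control 4 reached into the MEKi range.

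Slc1a4 was higher with MEKi than with anti-CD40 by 0.71 ± 0.12 on the log2 scale (1.64-fold, adjusted p = 0.0252). Against control the MEKi difference was 0.55 ± 0.16 and missed the threshold (adjusted p = 0.0725). It passed without control 4 (0.68, adjusted p = 0.0221), and with probe sets at the floor filtered out (adjusted p = 0.0194). With the combination the level lay between MEKi and control (7.54 ± 0.39), and neither step passed. A second probe set of Slc1a4 also differed between MEKi and anti-CD40 (0.84 ± 0.17, adjusted p = 0.0368). The other Slc1a4 probe set did not pass there (0.70 ± 0.16, adjusted p = 0.0530), and on it the MEKi/CD40 mean (6.67) lay below the control mean (6.94). The call against anti-CD40 was lost without anti-CD40 2, 3 or 4 or MEKi 1 or 3 (adjusted p = 0.0507 to 0.0807), and in the low number series alone (0.90, adjusted p = 0.0902).

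Slc1a5, the ASCT2 glutamine exchanger, passed in no comparison and had its lowest mean with MEKi. MEKi tumours read 8.34, 8.62, 8.49, 8.52 and 8.32, below all anti-CD40 tumours (8.66, 8.81, 9.04 and 8.68). The difference between both groups was -0.34 ± 0.10 (adjusted p = 0.0990), and it passed once probe sets at the floor were filtered out (adjusted p = 0.0352) or the adipocyte score entered the fit (adjusted p = 0.0385). With MEKi/CD40 the values were 8.57, 9.71, 8.98 and 8.81. The highest, in tumour 2, came from the tumour with the adipocyte score of 10.81, and without it the MEKi/CD40 difference from MEKi moved from 0.56 to 0.33 (adjusted p = 0.253 and 0.233).

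Slc38a1 (chr15:96571418-96643438), a sodium-coupled carrier that concentrates glutamine in cells, was lower with the combination. Control tumours read 10.60, 10.53, 10.82, 10.68 and 10.50, and anti-CD40 tumours 10.41, 10.73, 10.78 and 10.41. MEKi tumours read 10.32, 10.20, 9.91, 10.62 and 10.40, and MEKi/CD40 tumours 9.71, 9.94, 10.17 and 10.10. The MEKi/CD40 tumours lay below all control and all anti-CD40 tumours and overlapped with the MEKi tumours.

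Slc38a1 fell by 0.65 ± 0.11 with MEKi/CD40 against control, to 63.9% of the control signal (adjusted p = 0.00811), and by 0.60 ± 0.14 against anti-CD40 (adjusted p = 0.0410). With MEKi alone the difference from control was -0.34 ± 0.13 (adjusted p = 0.168), and the step from MEKi to MEKi/CD40 was -0.31 ± 0.16 (adjusted p = 0.398). The MEKi difference from control passed under 1 of 9 other settings, with the adipocyte score in the fit. A second, dimmer Slc38a1 probe set fell with MEKi/CD40 against control (by 0.73 ± 0.11, adjusted p = 0.00511), and there the step from MEKi also passed (-0.55 ± 0.11, adjusted p = 0.0490). Without any 1 tumour the fall against control still passed (-0.71 to -0.56, highest adjusted p = 0.0267). It did not pass in the low series alone (-0.58, adjusted p = 0.147), when the number series was blocked (adjusted p = 0.0618) or without the 3 tumours of highest adipocyte score (-0.69, adjusted p = 0.0591). The call against anti-CD40 held only without MEKi/CD40 3 among the 8 tumours left out in turn.

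Slc38a2, the related carrier known to rise when amino acids are withdrawn, gave the highest signal of the set and varied little on the probe set used. Means were 12.86 ± 0.18 in control, 12.99 ± 0.16 with anti-CD40, 12.73 ± 0.08 with MEKi and 12.75 ± 0.08 with MEKi/CD40. All 5 MEKi tumours (12.59 to 12.79) lay below all 4 anti-CD40 tumours (12.83 to 13.19), a difference of -0.26 ± 0.08 that did not pass (adjusted p = 0.111). It passed under 1 of 10 other settings, with probe sets at the floor filtered out. A second, dimmer Slc38a2 probe set differed more from control, by -0.53 ± 0.18 with MEKi/CD40 and -0.49 ± 0.22 with MEKi. Neither difference passed (adjusted p = 0.103 and 0.264 in limma). Signals of different probe sets are not compared as amounts, since each has its own response.

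The arginine and lysine carrier Slc7a1 passed in no comparison. Its means were 10.31 ± 0.20 in control, 10.41 ± 0.22 with anti-CD40, 10.62 ± 0.20 with MEKi and 10.52 ± 0.21 with MEKi/CD40. The MEKi difference from control was 0.31 ± 0.12 (adjusted p = 0.183), and the groups overlapped.

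Slc7a2 (chr8:40862341-40922070), whose product carries arginine and is known from activated macrophages and liver, was the carrier that rose, and it did so in both groups given the inhibitor. Control tumours read 11.21, 11.46, 11.71, 11.57 and 11.77, and anti-CD40 tumours 10.49, 11.22, 11.20 and 11.42. MEKi tumours read 12.47, 11.91, 12.12, 12.41 and 12.30, and MEKi/CD40 tumours 12.23, 12.23, 12.15 and 12.85. Every tumour given the inhibitor lay above every tumour without it, a split whose share over all probe sets was not counted. MEKi/CD40 and control did not overlap for 16.8% of all probe sets, MEKi/CD40 and anti-CD40 for 18.4%, and MEKi and anti-CD40 for 10.4%. Slc7a2 was the only carrier whose MEKi and control tumours did not overlap (1 of 10, background 9.17%).

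Slc7a2 rose by 0.70 ± 0.14 with MEKi against control (1.62-fold, adjusted p = 0.0235) and by 0.82 ± 0.18 with MEKi/CD40 (1.77-fold, adjusted p = 0.0212). Against anti-CD40 it was higher by 1.16 ± 0.21 with MEKi (adjusted p = 0.0288) and by 1.28 ± 0.25 with MEKi/CD40 (2.43-fold, adjusted p = 0.0248). MEKi/CD40 and MEKi differed by 0.12, with a 95% interval from -0.30 to 0.54. The anti-CD40 mean was 0.46 ± 0.21 below control and did not pass (adjusted p = 0.927), and the interaction was 0.58 ± 0.28 (adjusted p = 0.348).

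The 3 other probe sets of Slc7a2 also had higher means with the inhibitor. The brightest of them rose with MEKi (0.58 ± 0.14, adjusted p = 0.0401), and none of the 3 passed with MEKi/CD40 against control (adjusted p = 0.109 to 0.506). The Slc7a2 call with MEKi was lost without control 2, control 4 or MEKi 1 (adjusted p = 0.0504 to 0.0588). That call was also lost with the adipocyte score in the fit (0.75, adjusted p = 0.0934) and in the low series alone (0.855, adjusted p = 0.529). The call with MEKi/CD40 was lost without control 2 (adjusted p = 0.0531). Without tumour MEKi/CD40 4, which had the highest Slc7a2 value and muscle signal, the rise was 0.66 (adjusted p = 0.0251). Without the 3 tumours of highest adipocyte score it was 0.65 (adjusted p = 0.0829), in the low series alone 1.03 (adjusted p = 0.131) and with the adipocyte score in the fit 0.81 (adjusted p = 0.123), and it did not pass in any of these. Against anti-CD40, the MEKi/CD40 call was lost without anti-CD40 2 or 3 or MEKi/CD40 1 or 2, and the MEKi call without anti-CD40 2 or 3 or any MEKi tumour except MEKi 2. Fibroblast markers rose in the same groups as Slc7a2. So did 2 of 4 neutrophil markers in each, S100a8 and S100a9 (mean score 3.82 in control, 5.12 with MEKi and 6.48 with MEKi/CD40). S100a9 was at background in all 5 control tumours and Cxcr2 in every tumour. Csf3r averaged 7.21, 6.81 and 7.35 in the same order. Of 7 epidermis markers, 2 rose in each of these groups (3.63, 4.40 and 4.85), while Krt1 was at background in every tumour. The scores include these background values. Of 8 macrophage markers, 2 fell with MEKi and 1 with MEKi/CD40 (11.93, 11.25 and 11.76). The part of these cell types in the Slc7a2 difference was not tested.

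**Figure D3:**
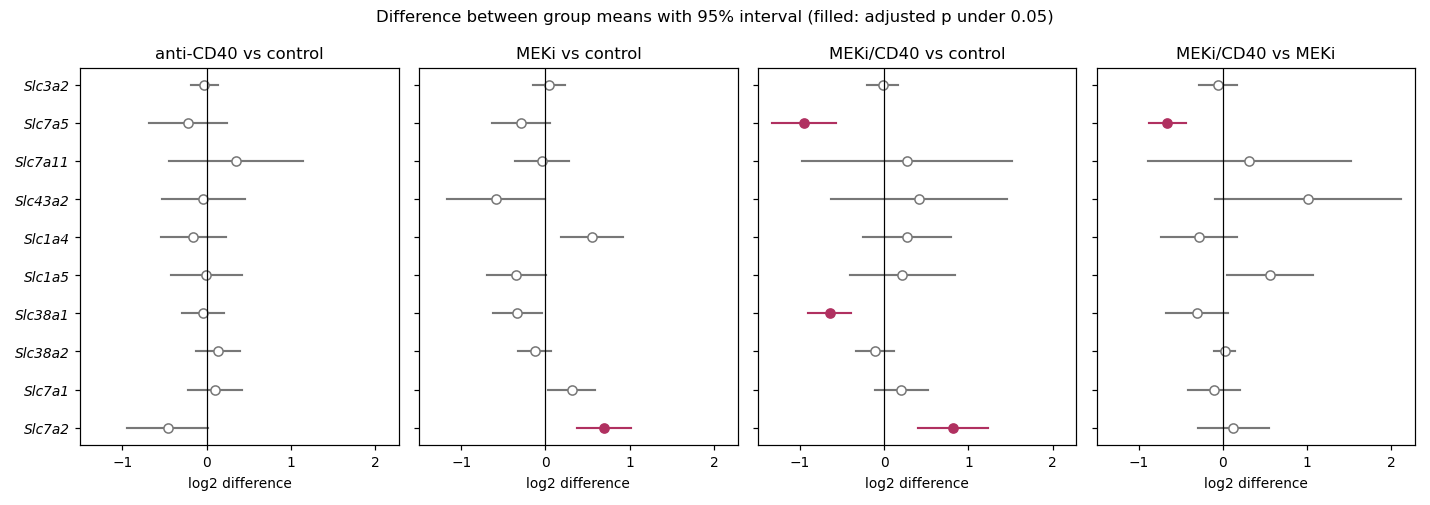
Log2 difference between group means (horizontal axes) with 95% intervals for each carrier (vertical axis) in 4 comparisons; filled points passed at an adjusted p under 0.05. Slc7a5 (-0.95), Slc38a1 (-0.65) and Slc7a2 (0.82) passed with MEKi/CD40 against control, and Slc7a11 and Slc43a2 have the widest intervals in that comparison.

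For the 3 carriers called with MEKi/CD40 against control, the direction was the same under the 9 other settings plotted, while calls changed. The differences ran from -0.998 to -0.843 for Slc7a5, from -0.69 to -0.58 for Slc38a1 and from 0.65 to 1.03 for Slc7a2 over the 9 settings plotted beside the values given above. Without the 3 tumours of highest adipocyte score, 0 of the 10 carriers passed and 3439 of all probe sets still did. That fit has 5 control and 2 MEKi/CD40 tumours.

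**Figure D4:**
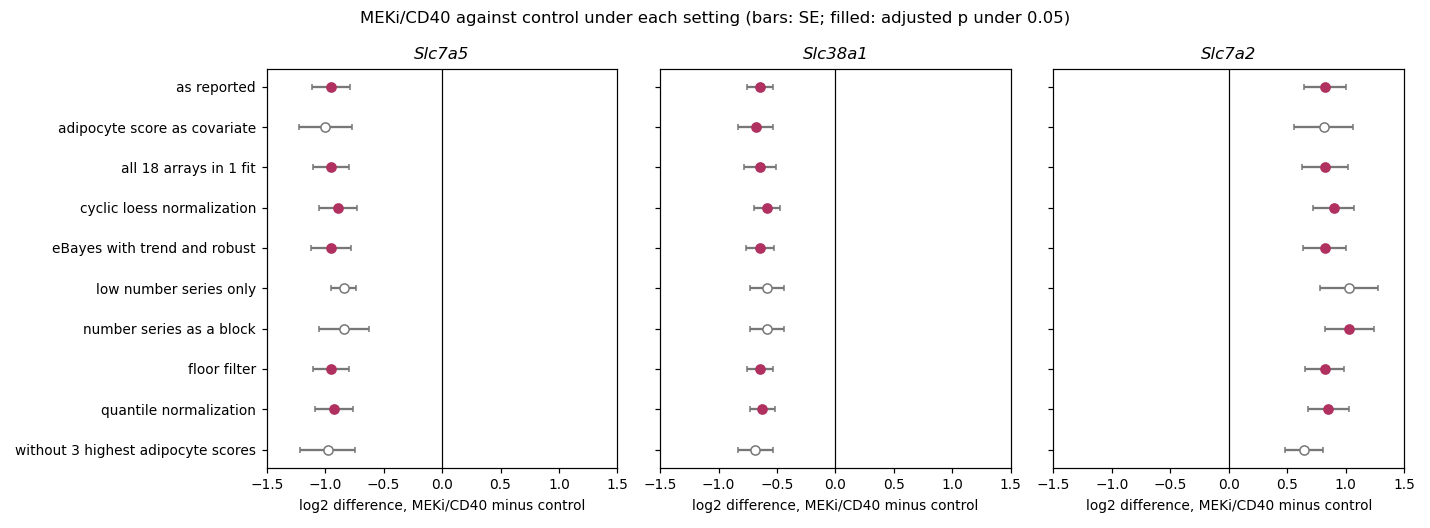
Log2 difference, MEKi/CD40 minus control (horizontal axes), with its SE for Slc7a5, Slc38a1 and Slc7a2 as reported and under 9 other settings (vertical axis); filled points passed at an adjusted p under 0.05. All points of a gene lie on the same side of 0, and none passes in the low number series alone or without the 3 tumours of highest adipocyte score.

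Across the 18 tumours, the signals most like those of the called carriers were Rras2 (r = 0.93) and Eif1ax (r = 0.92) for Slc7a5, Dna2 (r = 0.94) and Mrps31 (r = 0.94) for Slc38a1, and Slc35e1 (r = 0.96) and Fat1 (r = 0.94) for Slc7a2. For Slc1a4 they were Rbms2 (r = 0.90) and Ncam1 (r = 0.89), and for Slc43a2 Cd84 (r = 0.94) and Vsir (r = 0.94). Slc7a11 was most like Adam8 (r = 0.87) and Stx3 (r = 0.86), where Spearman's rho was 0.69 and 0.38. The remaining carriers had weaker best matches, namely Idh1 for Slc1a5 (r = 0.79), Tmem168 for Slc38a2 (r = 0.80), Eprs for Slc7a1 (r = 0.80) and Atf3 for Slc3a2 (r = 0.76). Slc7a5 and Slc38a1 correlated with each other at 0.79. These are Pearson correlations over tumours that share the group differences, searched among 8704 genes with a signal of at least 6 everywhere, and they are descriptions.

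Other carriers of the same families were mostly dim and mostly did not pass. Of 13 further genes (the SLC7 and SLC43 families and Slc3a1), 9 were at background on at least 15 arrays, and with MEKi/CD40 against control 3 passed upward and 0 downward, beside 5.5% of all probe sets higher and 9.37% lower. In the low series alone 0 passed, and without the 3 tumours of highest adipocyte score 1 did. Slc43a3, an equilibrative nucleobase transporter despite its family name, rose from 5.34 ± 0.51 to 7.35 ± 1.03 (log2 difference 2.02 ± 0.51, adjusted p = 0.0372). With MEKi alone it stood at 4.22 ± 0.59, and its interaction passed (3.09 ± 0.65, adjusted p = 0.0227). Slc7a6, which exchanges cationic for neutral amino acids with SLC3A2, rose by 0.29 ± 0.06 (adjusted p = 0.0234). Slc43a1 passed too, but its control values (all under 3) were at background and its MEKi/CD40 values (2.73 to 3.26) close to it, so no fold is given. Slc7a7, with a role like that of Slc7a6, fell with MEKi alone by 0.63 ± 0.16 (adjusted p = 0.0449).

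Of 22 further neutral and acidic carriers, 13 of them at background, 2 rose with MEKi/CD40 and 0 fell, a share near the 5.5% of all probe sets that rose, and 0 passed in the low series alone. The genes at background count in that share. With the floor filter 9 of the carriers were tested, of which 3 rose and 2 fell. Slc38a10, a glutamine and glutamate carrier, rose from 11.35 ± 0.08 to 12.18 ± 0.17 (0.83 ± 0.09, adjusted p = 0.00160) and also with MEKi alone (0.55 ± 0.09, adjusted p = 0.0122). Slc36a4, a proline and tryptophan carrier, rose by 0.62 ± 0.07 (adjusted p = 0.00229). Slc6a15, a carrier of branched-chain amino acids and proline, differed by -0.97 ± 0.28 and did not pass (adjusted p = 0.0633), nor did the system L gene Slc7a8 (-0.33 ± 0.43, adjusted p = 0.761). The glutamate carrier Slc1a3 was at background in all 5 control tumours and did not pass (adjusted p = 0.302), so no fold is given. Of 24 genes of lysosomal export and amino acid sensing, 1 rose and 1 fell, both shares below those of all probe sets, and 0 passed in the low series alone. These were Castor2 (0.74 ± 0.18), a paralogue of the arginine sensor gene Castor1, and Nprl3 of the GATOR1 complex, which restrains mTORC1 (-0.63 ± 0.11).

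Of the 9 lists, genes that charge tRNAs with amino acids had the highest share lower. With MEKi/CD40 against control, 13 of 19 measured cytosolic aminoacyl-tRNA synthetase genes fell and 0 rose, with a list median of -0.39. Of all probe sets 9.37% were lower, with a median of 0, or -0.07 over those never at the floor. Among them Cars, for cysteine, fell by 1.00 ± 0.13, Lars, for leucine, by 0.60 ± 0.07 and Qars, for glutamine, by 0.39 ± 0.06 (adjusted p = 0.00328, 0.00230 and 0.00426). With MEKi alone and with anti-CD40 alone 0 of the 19 passed in limma. The list median with MEKi was -0.15, and its count changed with the setting. With MEKi 5 of 19 fell with the floor filter and 5 with the adipocyte score in the fit. With all 18 arrays in 1 fit 3 fell, 1 fell with either other scaling or in the low series, and 0 with the trended eBayes or the number series block. Without the 3 tumours of highest adipocyte score 5 of 19 fell, and in the low series alone 0 did, with medians of -0.36 and -0.43.

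Of the genes of serine, glycine and proline synthesis, 5 of 10 measured members were lower and 0 higher, with a median of -0.62, beside 9.37% of all probe sets lower. Shmt2, the mitochondrial serine hydroxymethyltransferase, fell by 1.24 ± 0.18, Psat1 by 1.07 ± 0.12 and Psph by 0.94 ± 0.14, the last 2 being steps from 3-phosphoglycerate to serine (adjusted p = 0.00507, 0.00193 and 0.00539). Without the 3 tumours of highest adipocyte score 2 of 10 fell (median -0.67), and in the low series alone 1 did (median -0.75). With MEKi alone 0 of 10 passed (median -0.37), while with the floor filter 4 were lower and 2 higher. Of 10 genes of glutamine and branched-chain amino acid use, 3 fell and 0 rose, namely Glud1 (-0.29 ± 0.03), Got2 (-0.45 ± 0.07) and Got1 (-0.60 ± 0.14), which pass nitrogen between glutamate and its partners. In the low series alone 1 of these 10 genes fell, as without the 3 tumours of highest adipocyte score. Of 10 genes of arginine use, 2 fell and 0 rose, with 0 falling in the low series alone and 1 without the 3 tumours. These were Odc1, the entry enzyme of polyamine synthesis (-0.99 ± 0.15), and Asl, which makes arginine (-0.77 ± 0.10).

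The ATF4 list was mixed. Of 17 measured genes 3 fell and 1 rose with MEKi/CD40 against control, with a median of -0.18, beside 9.37% of all probe sets lower and 5.5% higher. In the low series alone 0 passed (median -0.02), and without the 3 tumours of highest adipocyte score 2 fell and 0 rose. Asns, asparagine synthetase, fell from 12.04 ± 0.28 to 11.06 ± 0.12 (by 0.98 ± 0.15, adjusted p = 0.00520), Ddit4, an inhibitor of mTORC1, by 1.10 ± 0.21 (adjusted p = 0.0141), and Eif2ak4, the kinase that senses uncharged tRNA, by 0.68 ± 0.12 (adjusted p = 0.00974). Vldlr, a lipoprotein receptor, rose by 2.02 ± 0.45 (adjusted p = 0.0237). Atf4 itself differed by -0.38 ± 0.12 and did not pass (adjusted p = 0.0915). Myc fell from 10.23 ± 0.10 to 9.63 ± 0.19 (by 0.60 ± 0.09, adjusted p = 0.00635), with MEKi alone at 10.22 ± 0.26. Of 14 genes of glutathione synthesis and the NRF2 response, 1 fell, the glutathione reductase gene Gsr (-0.78 ± 0.19, adjusted p = 0.0325), and 0 rose, a share below that of all probe sets lower. None of the 14 passed in the low series alone or when the number series was blocked, and without the 3 tumours of highest adipocyte score 1 rose and 0 fell. The proliferation markers fell with MEKi/CD40, as did genes of these lists. With MEKi alone 5 of 5 proliferation markers fell too. There 0 of 19 synthetase genes and 0 of 10 genes of serine, glycine and proline synthesis passed in the reported fit. Both counts changed with the setting, as given above. The part of proliferation in the lists was not tested.

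**Figure D5:**
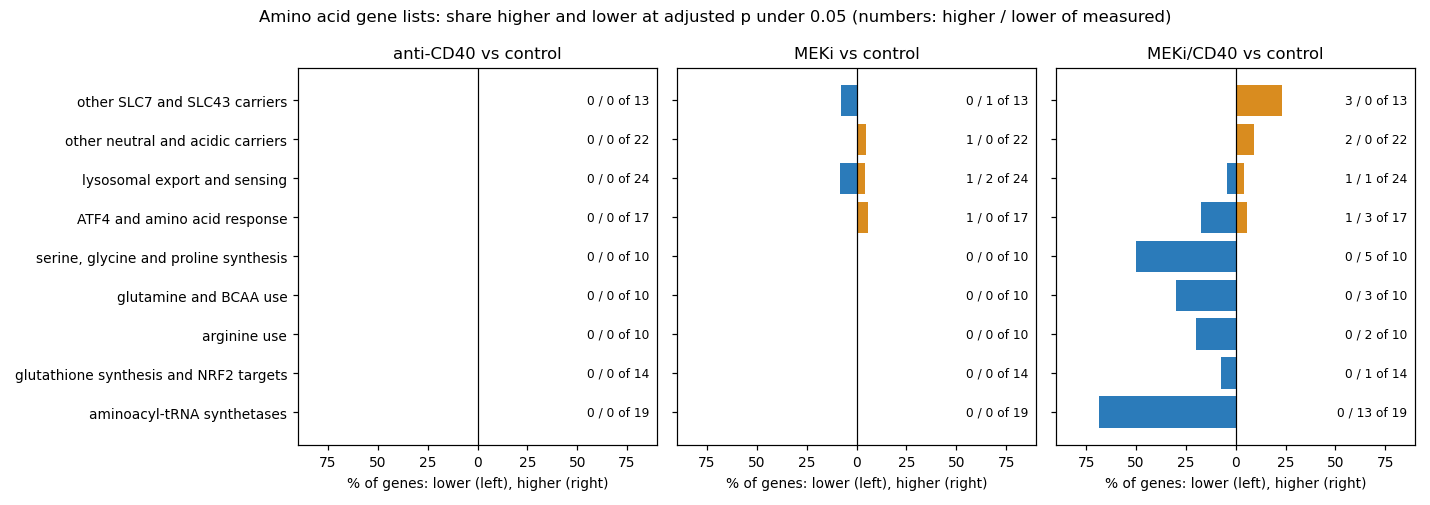
Percent of the measured genes of each amino acid list (vertical axis) that were higher (right) or lower (left) at an adjusted p under 0.05 in 3 comparisons against control, with the counts higher / lower of measured printed beside the bars. No gene passed with anti-CD40, few with MEKi, and with MEKi/CD40 13 of 19 synthetase genes and 5 of 10 genes of serine, glycine and proline synthesis were lower.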

How the data were processed

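Deposited log2 signals were used as they stand; the authors made them with RMA in Chipster (version not given in the sources used here). They ran from 2.16 to 16.34, and 34.4% equalled the lowest value, so the background step is uncertain. The floor, or background, was taken as any value under 3 or at most 0.3 from a value found on 6 or more arrays for the same probe set. Such values made up 53.7 to 55.9% of each array. Array medians were 2.72 to 2.95, upper quartiles 8.14 to 8.25, and the number of tumours limits the precision. Of 45101 probe sets, 64 controls were left out and 45037 tested, 34945 of them with 1 gene symbol. Gene positions are those of RefSeq GRCm38.p6 (34741 probe sets matched by gene identifier).

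Each pair of groups was fitted on its own with limma 3.58.1 (lmFit and eBayes) in R 4.3.3, the interaction on all 18 arrays, and p-values were adjusted by Benjamini-Hochberg over all tested probe sets. Standard errors are those of the model, with n per group as given in the report. The code was tested on simulated data. The genes and lists were chosen with earlier results of these data known. Named beside the 10 carriers were up to 3 genes per list by smallest p in MEKi/CD40 against control, the genes Myc, Atf4, Asns, Slc7a7, Slc7a8 and Slc1a3, and the most similar genes by correlation; Vldlr was added after its value was seen. A marker score is the mean log2 signal of a list. Alternatives were other scalings, a floor filter (above the floor on at least 4 arrays), a trended robust eBayes (with statmod 1.5.0), a joint fit, blocks and subsets by title number or replicate number, the adipocyte score, other probe sets, and leaving out each array. The counts over the lists under these settings were added after the data were seen. Figures were drawn with matplotlib.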

Additional observations from a re-analysis of the deposited data

Results flagged for a closer look

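Among 40 groups of tumours (10 carriers in 4 groups), 8 had a lowest or highest tumour whose gap to the rest exceeded Dixon's 95% critical value, which chance gives in about 1 of 20 groups. Slc7a11 stood out in control 4 (4.45, the others 3.74 to 3.81), in anti-CD40 1 (5.34, the others 3.86 to 3.99) and in MEKi/CD40 3 (5.97, the others 3.43 to 3.77). Control 4 also stood out for Slc1a4 (7.79, the others 7.04 to 7.25) and for Slc1a5 (9.39, the others 8.62 to 8.70). Slc3a2 was high in MEKi 3 (12.26, the others 11.85 to 11.95), Slc43a2 low in anti-CD40 1 (6.98, the others 7.50 to 7.54) and Slc7a2 high in MEKi/CD40 4 (12.85, the others 12.15 to 12.23).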

How the results depend on the processing

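The 10 calls among the carriers kept their direction under every setting run. Their number in MEKi/CD40 against control (3 as reported) was 1 when the title number series was blocked, 0 in the low series alone, 0 without the 3 tumours of highest adipocyte score, 1 with that score as a covariate, and 2 to 3 with each tumour left out. For MEKi against control (1) it was 2 with the floor filter, 0 in the low series and 0 to 1 with each tumour left out. With the adipocyte score as a covariate it was 1, but there Slc38a1 passed and Slc7a2 did not. For MEKi/CD40 against MEKi (1) it was 0 with the trended eBayes, the number series block, the low series, without the 3 tumours and with the covariate, and 0 to 1 with each tumour left out. For MEKi/CD40 against anti-CD40 (3) it was 1 with the trended eBayes, 0 without the 3 tumours, 0 with the covariate and 0 to 4 with each tumour left out. For MEKi against anti-CD40 (2) it was 4 with the floor filter, 0 with the trended eBayes, the number series block, the low series and without the 3 tumours, and 0 to 2 with each tumour left out. The anti-CD40 and interaction counts were 0 under every setting. The cause of these changes was not tested, and the low series leaves 2 control and 2 MEKi tumours. Replicate numbers do not pair the samples: same-numbered tumours deviated together no more than others (median r 0.01 over 25 pairs, against -0.01 over 96). With a replicate block 0 carriers passed in any comparison, 1 gene of the 9 amino acid lists did in MEKi/CD40 against control (of arginine use), and all probe sets called fell from 6698 to 113 in MEKi/CD40 against control, from 3525 to 0 in MEKi against control, from 1127 to 0 in MEKi/CD40 against MEKi, from 5231 to 1276 in MEKi/CD40 against anti-CD40 and from 2292 to 3 in MEKi against anti-CD40. Over all settings except single tumours, the calls over all probe sets ranged from 113 to 9698 in MEKi/CD40 against control and from 0 to 6287 in MEKi against control.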
